A study of Homo sapiens with 3 samples.

Results

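The expression of 9 genes of the epithelial anchoring machinery was followed across the cells of a Caco-2 and HT29 co-culture: the laminin-332 chains LAMA3 and LAMB3, the integrin subunits ITGA2, ITGA3, ITGA5, ITGA6, ITGB1 and ITGB4, and the hemidesmosome collagen COL17A1. They were taken by symbol from the gene rows of the count matrices, which gave 9 of 33538 rows, and all 9 passed the low-count filter of the comparison of lines. Caco-2 and HT29 are established human colorectal carcinoma lines, and they were grown together on permeable Transwell inserts after seeding at 9 Caco-2 cells to 1 HT29 cell. The 3 single-cell libraries were 2 untreated controls and 1 co-culture given 1 ng/ml Escherichia coli O111:B4 lipopolysaccharide (LPS) on the apical side from day 22 for 24 h, and all cells were detached with trypsin on day 23 and thawed before loading. Both lines were present in every library, no library held either line alone, and the LPS group was a single library, so its differences carried no replicate of their own. The methods of the study describe one seeding scheme for the inserts and a legend speaks of batches of cells. This leaves unclear whether the controls were seeded separately. The p-values thus measure only spread within this set of libraries, which may be technical. Between the lines, it is the spread of the line difference from library to library. The test, edgeR, also draws each gene's spread from all genes. The members so had 19.6 degrees of freedom between the lines and 28.8 against LPS in all kept cells. The 3 libraries alone would give far fewer. In summed counts, fewer cells of a type and less RNA per cell cannot be told apart.

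Laminin-332 is a heterotrimeric protein that epithelial cells secrete into the basement membrane beneath them. Integrin alpha6beta4 binds it from the basal cell surface and, with collagen XVII and plectin, builds the hemidesmosome that ties keratin filaments to the matrix. Integrins that contain the beta1 subunit pair it with alpha2 for collagen, alpha3 or alpha6 for laminins and alpha5 for fibronectin, and they link to actin at focal adhesions.

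The matrices held 5811, 6495 and 6838 barcodes with 33893707, 27934953 and 24185467 UMIs (unique molecular identifiers, one per captured RNA) in control 1, control 2 and the LPS library, and 4633, 4989 and 4850 cells were kept. Between 9 and 11 barcodes were shared by a pair of libraries, and none of them had the same counts. HT29-line cells made up 13.9%, 18.6% and 15.9% of the kept cells, in the same order, with 644, 927 and 770 cells, and 3897, 3939 and 3898 cells were Caco-2-line. The members and all pathway lists were left out when the lines were assigned and when cells were clustered. Median depths of the lines were close in each library, at 5401.5 against 5465 UMIs in control 1, 3755 against 4199 in control 2 and 3542.5 against 3560 in the LPS library. The cells carried epithelial RNA, with the 8 epithelial markers at 4942 to 5234 CPM in the libraries (CPM, UMIs scaled to 1000000 UMIs of the same cells), while the 6 fibroblast markers summed to 17.2 to 23.0 and the 5 endothelial markers to 2.04 to 2.40, with 2 of the latter at 0 in every library. The 7 immune markers summed to 245.0 to 275.8 CPM, of which LYZ, a lysozyme gene that gut epithelium also uses, gave 235.1 ± 17.8 (SD, n = 3 libraries).

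Each gene was placed on GRCh38 by its Ensembl identifier in the matrices. LAMA3 (ENSG00000053747) lies at chr18:23689453-23956222 on the plus strand and LAMB3 (ENSG00000196878) at chr1:209614870-209652425 on the minus strand. The hemidesmosome genes are ITGA6 (ENSG00000091409, chr2:172427354-172506459, plus strand), ITGB4 (ENSG00000132470, chr17:75721328-75757818, plus strand) and COL17A1 (ENSG00000065618, chr10:104031286-104085880, minus strand). The beta1 integrin genes are ITGB1 (ENSG00000150093, chr10:32887273-33005792, minus strand), ITGA2 (ENSG00000164171, chr5:52989340-53094779, plus strand), ITGA3 (ENSG00000005884, chr17:50055968-50090481, plus strand) and ITGA5 (ENSG00000161638, chr12:54395261-54419266, minus strand). ITGA6, ITGA2 and ITGA5 overlap annotated antisense RNAs (GPR84-AS1 for ITGA5). LAMA3 overlaps the pseudogene RPL23AP77, and ITGB1 overlaps the pseudogene AK3P5 and the divergent transcript ITGB1-DT. ITGB4 overlaps GALK1, and LAMB3 and COL17A1 each hold a microRNA gene. These overlaps are by position without regard to strand, and whether they affected any count was not tested.

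Promoter sequences were available in the RefSeq set on GRCh38.p14 for 7 of the 9 genes, in 11 entries, because LAMB3, ITGA6 and ITGB1 have several starts. The 250 bases before the start are shown for both laminin chains among the members and for COL17A1 and ITGA5, which had the largest differences between the lines in either direction. LAMA3 was read at chr18:23872770-23873019 on the plus strand and LAMB3 at chr1:209651375-209651624 on the minus strand, and both of these starts lie inside the annotated gene. COL17A1 was read at chr10:104085881-104086130 and ITGA5 at chr12:54419267-54419516, both on the minus strand. Capitals mark matches to TGANTCA, the letters of the AP-1 motif.
LAMA3: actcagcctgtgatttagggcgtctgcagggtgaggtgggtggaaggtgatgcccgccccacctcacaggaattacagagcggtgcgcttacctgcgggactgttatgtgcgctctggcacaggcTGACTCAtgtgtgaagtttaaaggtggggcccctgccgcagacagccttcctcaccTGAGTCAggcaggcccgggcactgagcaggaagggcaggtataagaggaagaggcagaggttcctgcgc
LAMB3: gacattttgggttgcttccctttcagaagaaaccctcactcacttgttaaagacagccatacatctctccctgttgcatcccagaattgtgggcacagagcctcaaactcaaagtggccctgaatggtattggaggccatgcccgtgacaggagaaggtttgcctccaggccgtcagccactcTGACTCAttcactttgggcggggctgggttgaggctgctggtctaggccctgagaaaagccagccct
COL17A1: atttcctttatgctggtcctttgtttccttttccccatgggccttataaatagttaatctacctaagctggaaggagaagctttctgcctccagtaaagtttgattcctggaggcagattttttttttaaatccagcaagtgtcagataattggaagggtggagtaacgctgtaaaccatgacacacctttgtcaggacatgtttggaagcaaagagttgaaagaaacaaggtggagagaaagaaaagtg
ITGA5: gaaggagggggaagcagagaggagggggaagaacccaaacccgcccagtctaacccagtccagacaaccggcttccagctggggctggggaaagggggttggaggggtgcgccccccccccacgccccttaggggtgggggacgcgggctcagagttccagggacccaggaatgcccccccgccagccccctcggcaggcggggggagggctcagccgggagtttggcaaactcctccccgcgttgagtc

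The motif was searched on both strands, where its letters read alike, so each match is one site. LAMA3 held it 125 and 69 bases before the start, and this LAMB3 entry held it 67 bases before the start. Of the 3 LAMB3 entries this is the only one with the motif and was shown for that, and the other 2, at and near the annotated gene start, held 0 matches. It was found in 2 of the 11 entries and in 6.57% of all 35116 promoters of the same length. The GC box GGGCGG stood in 8 of the 11 entries, in every matched gene but COL17A1, and in 42.6% of all promoters. COL17A1 had a GC content of 40.4%, against 70.0% for ITGA5, 60.4% for LAMA3 and 54.0% for LAMB3. It held the TATA box letters TATAAA 206 bases before the start. Those letters stood in 3 of the 11 entries, also of ITGA6 and ITGB1, and in 10.7% of all promoters. Only COL17A1 held the GATA motif AGATAA (1 entry, 9.17% of all promoters) and the HNF1 letters GTTAAT (1 entry, 6.23%). The CDX letters TTTATG stood in COL17A1 and ITGA6 (2 entries, 9.64%). Also searched were the CACCC box CCCACCC (3 of 11 entries, 18.2% of all promoters), the TEAD letters GGAATG (2 entries, 11.9%) and the HNF4 letters CAAAGTCCA (0 entries, 0.325%). These matches describe the letters in these windows, and no binding was measured.

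The first comparison asked how the anchoring genes differed between HT29-line and Caco-2-line cells within the same co-cultures. COL17A1, LAMA3, ITGB4, ITGA3 and ITGA6 were between 4.84-fold and 14.7-fold higher in HT29-line cells, LAMB3 and ITGB1 were 1.82-fold and 1.54-fold higher, and ITGA5 was 16.2-fold lower. In edgeR's quasi-likelihood test with the library as a block, 7 of the 9 members were called higher and 1 lower at a Benjamini-Hochberg adjusted p under 0.05. The lines differed widely, and 72.8% of the 13987 genes tested were called, 34.8% higher and 38% lower, so a call alone did not set the members apart. Their median log2 fold change was 2.27, against -0.06 over all genes tested. The members were chosen with earlier results of these data known, so this gap is a description and not a test.

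**Figure D1:**
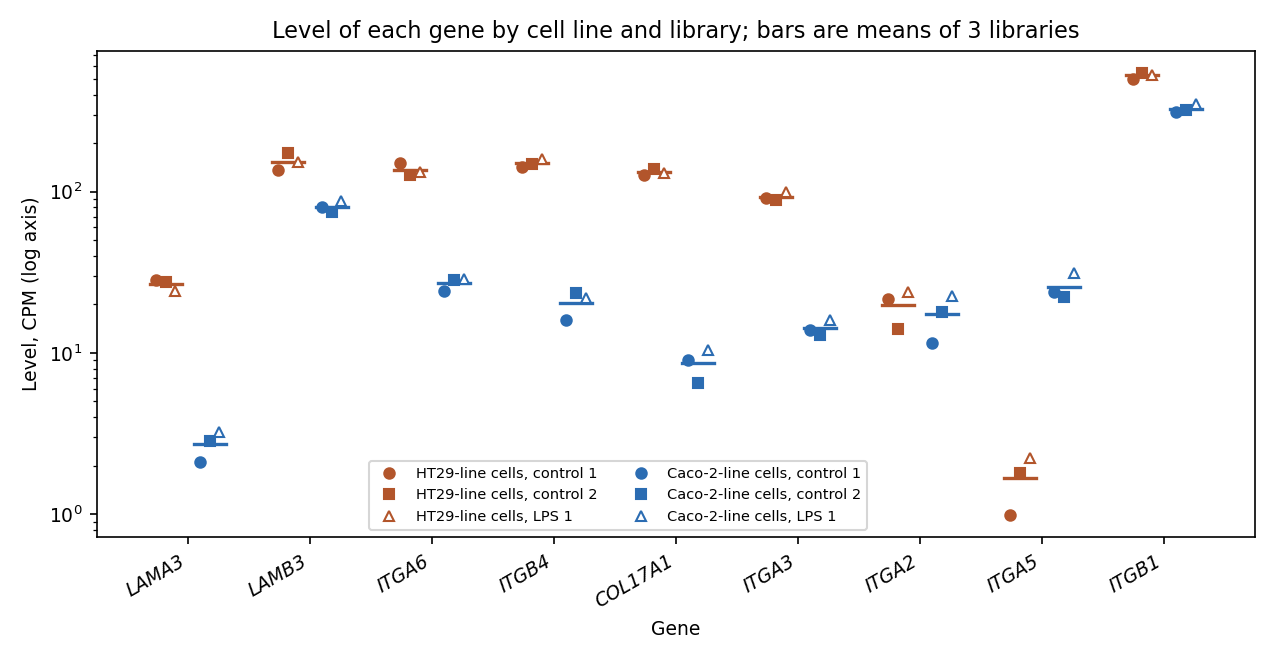
Level of each gene in CPM on a log axis for HT29-line cells (brown) and Caco-2-line cells (blue) of each library (circle, control 1; square, control 2; open triangle, LPS), with the mean of the 3 libraries as a bar. ITGA5 is the member that is higher in Caco-2-line cells, and ITGA2 is the member whose lines overlap. The share of all genes without overlap was not counted, and 72.8% of the genes tested were called between the lines.

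LAMA3, the alpha chain that gives laminin-332 its integrin-binding end, stood at 28.5, 27.4 and 24.1 CPM in HT29-line cells of control 1, control 2 and the LPS library, and at 2.10, 2.83 and 3.23 CPM in Caco-2-line cells. Every HT29-line value was above every Caco-2-line value. The log2 fold change was 3.26 ± 0.17 (SE; edgeR, adjusted p = 1.1e-12). LAMB3, the beta chain, was at 136.2, 172.7 and 152.7 CPM in HT29-line cells and at 79.9, 74.8 and 87.7 CPM in Caco-2-line cells, a log2 fold change of 0.86 ± 0.09 (edgeR, adjusted p = 7.6e-08). These values did not overlap either.

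LAMA3 therefore took a larger share beside LAMB3 in HT29-line cells. Of the summed UMIs of LAMA3 and LAMB3, LAMA3 gave 17.3%, 13.7% and 13.6% in HT29-line cells of control 1, control 2 and the LPS library, and 2.56%, 3.64% and 3.55% in Caco-2-line cells. The means were 14.9% ± 2.1 and 3.25% ± 0.60 (SD, n = 3 libraries), and the libraries did not overlap between the lines. These shares compare 3′ end counts, in which each gene is captured with its own efficiency, so they can be set side by side between lines but not read as the make-up of the protein.

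Among the hemidesmosome genes, COL17A1, the transmembrane collagen that binds integrin alpha6beta4 and laminin-332, had the largest rise in HT29-line cells. It stood at 126.0, 139.2 and 131.2 CPM there and at 9.05, 6.47 and 10.4 CPM in Caco-2-line cells. The log2 fold change was 3.88 ± 0.13 (edgeR, adjusted p = 3.8e-16), with a 95% interval of 3.62 to 4.14, at the 96.9th percentile of all genes tested. ITGB4, which carries the long cytoplasmic tail that binds plectin, was at 142.4, 148.6 and 160.4 CPM in HT29-line cells and at 16.1, 23.5 and 22.1 CPM in Caco-2-line cells. Its log2 fold change was 2.82 ± 0.10 (edgeR, adjusted p = 1.7e-15). ITGA6, its alpha partner, was at 150.3, 127.4 and 131.5 CPM against 24.1, 28.4 and 28.7 CPM, a log2 fold change of 2.27 ± 0.10 (edgeR, adjusted p = 5.4e-14). The count of ITGB4 per count of ITGA6 was 1.11 ± 0.14 (SD, n = 3 libraries) in HT29-line cells and 0.754 ± 0.081 in Caco-2-line cells.

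Among the beta1 integrins, ITGB1, the shared beta subunit, had the highest count of the 9 genes in every line and library. It was at 500.0, 545.6 and 531.4 CPM in HT29-line cells and at 310.3, 321.0 and 347.7 CPM in Caco-2-line cells, a log2 fold change of 0.62 ± 0.07 (edgeR, adjusted p = 1.2e-07). ITGA3, the alpha subunit of the laminin receptor alpha3beta1, was at 91.5, 88.5 and 99.4 CPM against 13.9, 12.9 and 16.0 CPM, a log2 fold change of 2.64 ± 0.10 (edgeR, adjusted p = 3.4e-15). ITGA5, the alpha subunit of the fibronectin receptor alpha5beta1, was nearly absent from HT29-line cells. It had 4, 7 and 7 UMIs there in the 3 libraries, or 0.992, 1.79 and 2.25 CPM, and 24.0, 22.1 and 31.1 CPM in Caco-2-line cells. Its log2 fold change was -4.02 ± 0.22 (edgeR, adjusted p = 2.3e-12).

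ITGA2, the alpha subunit of the collagen receptor alpha2beta1, did not pass the test. It was at 21.6, 14.1 and 23.7 CPM in HT29-line cells and at 11.6, 17.9 and 22.6 CPM in Caco-2-line cells, and the lines overlapped. The log2 fold change was 0.16 ± 0.17 (edgeR, adjusted p = 0.412), with a 95% interval of -0.20 to 0.52. Its direction rested on single libraries, since it was -0.18 without control 1 and 0.42 without control 2, where it was called higher (edgeR, adjusted p = 0.0162). Over its 11 alternatives the adjusted p ran from 0.0162 to 0.677.

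**Figure D2:**
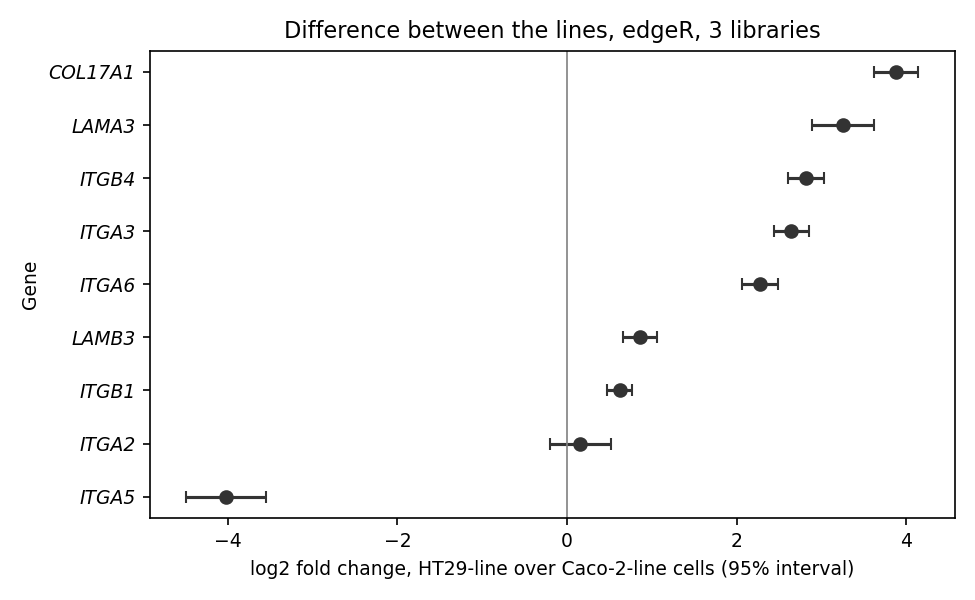
Log2 fold change of HT29-line over Caco-2-line cells for the 9 members, ordered by size, with the 95% interval of edgeR's fit of 3 libraries as error bars. COL17A1 is at the top with 3.88, ITGA5 at the bottom with -4.02, and only the interval of ITGA2 includes 0.

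Within the alpha subunits, ITGA6 gave 54.3% ± 2.9 of the summed UMIs of ITGA2, ITGA3, ITGA5 and ITGA6 in HT29-line cells and 32.3% ± 2.9 in Caco-2-line cells. ITGA3 gave 37.2% ± 2.2 and 17% ± 1.6. ITGA5 gave 0.674% ± 0.26 and 30.5% ± 2.9, and ITGA2 gave 7.82% ± 1.6 and 20.2% ± 3.9 (SD, n = 3 libraries). The libraries of the lines did not overlap for any of these shares, which rest on 3′ end counts like those of LAMA3 and LAMB3.

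The shares of cells with a UMI showed the same order. COL17A1 was found in 37.9% ± 4.9 of HT29-line cells and 3.91% ± 1.1 of Caco-2-line cells (SD, n = 3 libraries), and in 23.8% ± 1.5 and 2.01% ± 0.48 when each cell was thinned to the UMI minimum of control 1. ITGB4 was found in 42.4% ± 4.5 and 8.90% ± 0.83, or 25.7% ± 1.3 and 4.05% ± 0.95 after thinning. ITGA5 was found in 0.675% ± 0.071 of HT29-line cells and 10.8% ± 1.5 of Caco-2-line cells, or 0.273% ± 0.25 and 5.56% ± 1.3 after thinning. LAMB3 was broad, in 44.4% ± 2.8 of HT29-line cells and 30.4% ± 4.2 of Caco-2-line cells, and after thinning in 29.1% ± 2.7 and 16.5% ± 0.62. Thinning left out 118 and 155 HT29-line cells and 311 and 561 Caco-2-line cells of control 2 and the LPS library, and none of control 1.

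Free RNA in droplets can put UMIs of one line into cells of the other. Over genes at 20 CPM or more in HT29-line cells, the 1st percentile of the Caco-2-line level, as a percent of the HT29-line level, was 1.54, 2.98 and 2.05 in the 3 libraries, and the 5th percentile was 11, 14.1 and 13.8. COL17A1 stood at 7.18%, 4.65% and 7.94%, below the 5th percentile in each library, and LAMA3 stood at 7.37%, 10.3% and 13.4%. The Caco-2-line values of these genes were thus among the lowest that the libraries gave for genes of HT29-line cells, and the part of free RNA in them was not tested. In the other direction, the 8 enterocyte markers summed to 282, 189 and 308 CPM in HT29-line cells of the 3 libraries. In Caco-2-line cells they summed to 6013, 4929 and 4812 CPM. The part of free RNA in the low HT29-line values of ITGA5 and other genes was not tested either.

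The members' partners were described from 6 lists of hemidesmosome, integrin, laminin and matrix genes. These lists were also chosen with earlier results known, so their medians are descriptions. Their counts stand beside 34.8% of all genes tested called higher and 38% called lower. Of the 8 hemidesmosome partners, 6 were tested, 5 were higher in HT29-line cells and 1 was lower, with a median log2 fold change of 1.85 against -0.06 over all genes. KRT8 and KRT18, the simple-epithelial keratins, had log2 fold changes of 2.16 and 2.02, and CD151, the tetraspanin that binds laminin-binding integrins, and PLEC, the plectin that links ITGB4 to keratin, had 1.99 and 1.70. ERBIN, which binds ITGB4, was higher by 0.57. DST, whose epithelial form is the other hemidesmosome plakin, was lower, at 102.7 ± 16.2 CPM in HT29-line cells and 129.2 ± 10.6 CPM in Caco-2-line cells (log2 fold change -0.41; edgeR, adjusted p = 4.0e-04).

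The 20 genes of integrin adhesion complexes were all tested, and 11 were higher, 6 lower and 3 not called, with a median log2 fold change of 0.44. TNS4, a tensin that binds integrin beta tails, rose from 0.108 ± 0.072 CPM in Caco-2-line cells to 6.98 ± 0.77 CPM in HT29-line cells (log2 fold change 5.95). Lower in HT29-line cells were PARVB, TLN2 and FERMT2, which code for an ILK partner, a talin and a kindlin, with log2 fold changes of -4.32, -4.22 and -3.42. The kindlin FERMT1, in contrast, was higher by 0.60.

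Of the 18 other integrin subunits, 9 were tested, of which 7 were higher and 2 lower in HT29-line cells, with a median log2 fold change of 1.53. ITGB8, a partner of alphaV, was at 11.7 ± 2.2 CPM against 2.00 ± 0.54 CPM (log2 fold change 2.52), and ITGB7 was at 3.04 ± 0.92 CPM against 0.131 ± 0.11 CPM (4.34). ITGA7, another laminin-binding alpha subunit, was lower, at 0.966 ± 0.46 CPM against 7.60 ± 0.89 CPM (-2.99). ITGB2, the leukocyte beta subunit, had 1 UMI in HT29-line cells and 123 in Caco-2-line cells, a ratio of levels of 22.2 (exact 95% counting interval 3.90 to 882.0).

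The other laminin chains were the list whose called members all went one way. Of its 9 genes 6 were tested, none was higher, 4 were lower and 2 were not called, with a median log2 fold change of -1.36. Over all genes tested, 34.8% were called higher and 38% lower. LAMA1 and LAMA4, with 6 and 1 UMIs in HT29-line cells, passed the low-count filter only through their Caco-2-line counts. Only a lower value was thus open to them, and genes of the other lists near 0 in a line have the same limit. LAMA1, the alpha chain of embryonic laminins, was at 0.596 ± 0.60 CPM in HT29-line cells and 13.4 ± 4.6 CPM in Caco-2-line cells (log2 fold change -4.63). LAMB1 and LAMC1, the widely used beta and gamma chains, were lower by 1.34 and 1.38. LAMA4 had 1 UMI against 91, a ratio of levels of 16.4 (exact 95% counting interval 2.87 to 654.4). LAMA5 and LAMB2, the alpha and a beta chain of common epithelial laminins, were not called, at 92.0 ± 4.8 against 82.9 ± 12.6 CPM and 15.7 ± 1.4 against 14.9 ± 1.5 CPM. HT29-line cells thus had higher LAMA3 and LAMB3 beside lower LAMA1, LAMB1 and LAMC1, of which LAMA1 could only come out lower. Which laminin trimers the cells made was not measured.

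Of the 17 genes for other matrix components and laminin receptors, 14 were tested, 6 were higher, 5 lower and 3 not called, with a median of 0.22 that was the same with COL4A5 at its bound. FN1, the fibronectin bound by alpha5beta1, was at 6.95 ± 2.9 CPM in HT29-line cells and 164.8 ± 28.5 CPM in Caco-2-line cells (log2 fold change -4.67), in the direction of ITGA5. CD44, a receptor for hyaluronan, was at 239.0 ± 20.8 CPM against 5.21 ± 1.8 CPM (5.48). COL4A5, a collagen IV chain, had 0 UMIs in HT29-line cells and 220 in Caco-2-line cells, at least 13.2-fold lower against 3 counts over the group. NID1, which joins laminin to collagen IV, had 3 UMIs against 544, a ratio of levels of 32.7 (exact 95% counting interval 11.1 to 158.9). Of the 7 genes for laminin processing 4 were tested, 1 was higher, 1 was lower and 2 were not called, with a median of 0.08. MMP7 was at 33.5 ± 2.1 CPM against 0.311 ± 0.11 CPM (6.57), and MMP14, a membrane-bound matrix protease, was at 2.60 ± 0.86 CPM against 13.7 ± 1.5 CPM (-2.44). The counting intervals cover counting error only.

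Clustering without the members and lists gave 7 clusters with at least 20 cells in each library, and the levels in them are described with no test. Cluster 1 (3447 cells) was named intestinal stem-like, cluster 2 (4868) enterocyte-like, cluster 3 (2928) proliferating-like and cluster 6 (193) enteroendocrine-like. Each of these held at most 1.04% HT29-line cells. Cluster 1, with 23.8% of the kept cells, was led by ITIH2, TTN, OLFML3, SERPINF1 and COL2A1. All 6 stem markers were raised in it, but only FGG and PLA2G2A stood among its 10 leading genes. Of the 6 markers, 5 were also raised in the proliferating-like cluster 3, with 0 among its 10 leading genes. OLFM4, 1 of these markers, had 4 UMIs in all kept cells. The study reports a smaller share of stem-like cells, so its group need not match this cluster. Cluster 5 (2321 cells, 92.8% HT29-line) was led by TM4SF4, NUPR1, LCN2 and ANXA1, and cluster 7 (191 cells, 74.9% HT29-line) by SST, FCGBP, GCG and MUC2. Cluster 4 (408 cells) was led by SPRR3, SULT2B1 and SH3BGRL3, was 72.3% Caco-2-line and 3.92% HT29-line, and had the highest median depth, 7864 UMIs. Clusters 4, 5 and 7 were left without a cell type name.

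**Figure D3:**
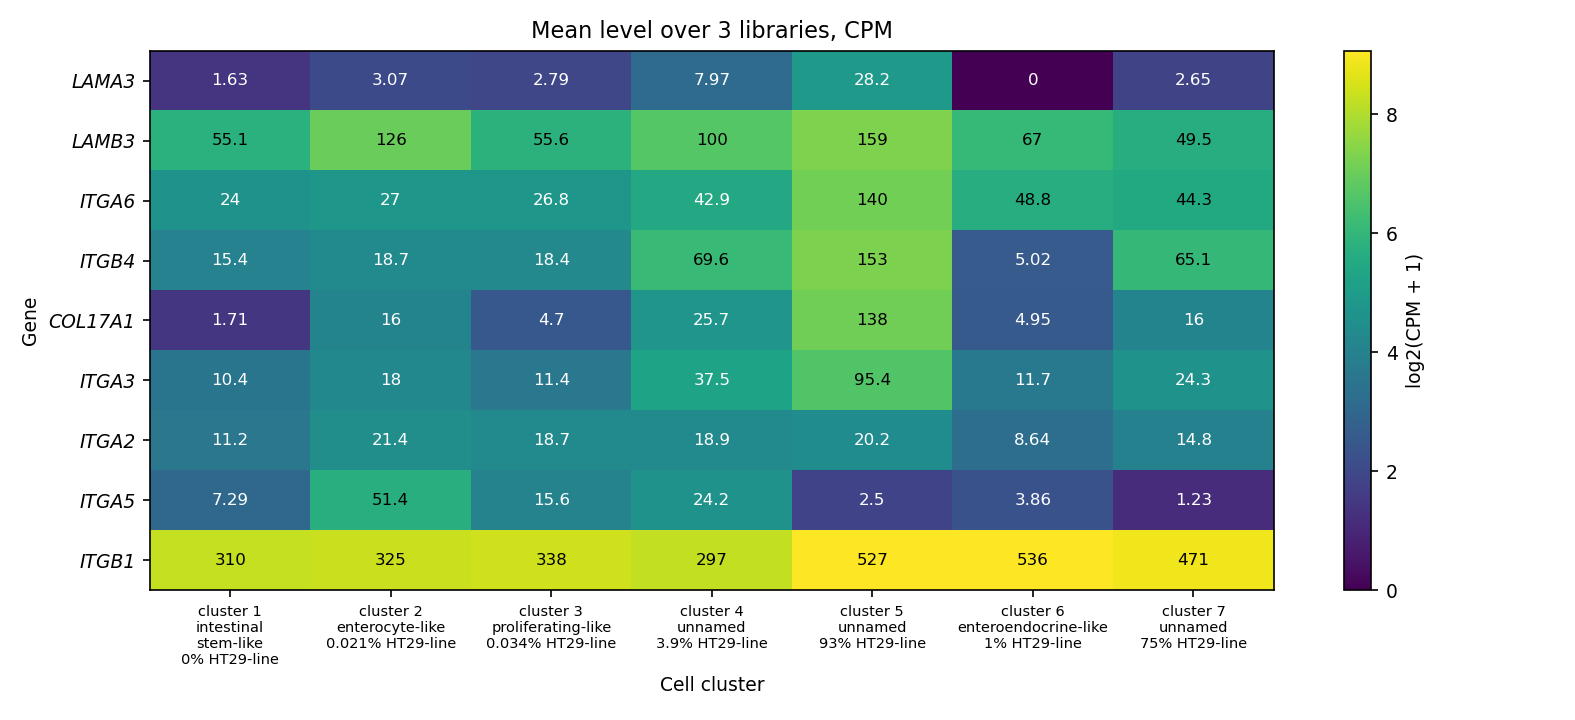
Mean level over 3 libraries of each gene (rows) in the 7 clusters (columns), with the value in CPM printed in each cell and the colour on the log2(CPM + 1) scale. Cluster 5 is the brightest column for LAMA3, LAMB3, ITGA6, ITGB4, COL17A1 and ITGA3, ITGA5 is brightest in cluster 2, and LAMA3 in cluster 6 is at 0.

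For 6 of the 9 members, LAMA3, LAMB3, ITGA6, ITGB4, COL17A1 and ITGA3, the highest level among these 7 clusters was that of cluster 5. Since that cluster was 92.8% HT29-line, this count largely repeats the comparison of the lines. The share of all genes with their highest level there was not counted. The gap to the next cluster was wide for COL17A1, at 137.7 ± 7.1 CPM against 25.7 ± 7.9 in cluster 4 (SD, n = 3 libraries), and for ITGA6, at 140.2 ± 14.4 against 48.8 ± 27.8 in cluster 6. LAMB3 was closer, at 159.1 ± 19.3 CPM in cluster 5 and 126.0 ± 11.7 in the enterocyte-like cluster, whose highest library, at 139.3, was just below the lowest of cluster 5, at 142.4. ITGB1 was highest in cluster 6, at 536.1 ± 99.3 CPM, which did not differ beyond its spread from 527.4 ± 24.8 in cluster 5. ITGA2 was at 21.4 ± 7.6 CPM in cluster 2 and 20.2 ± 6.1 in cluster 5, and its values in cluster 2 overlapped those of every other counted cluster.

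Within Caco-2-line cells, 2 members differed most between the stem-like and the enterocyte-like cluster. COL17A1 was at 1.67, 1.01 and 2.44 CPM in the stem-like cluster of control 1, control 2 and the LPS library and at 16.6, 10.0 and 21.4 CPM in the enterocyte-like cluster, a ratio of means of 9.38. ITGA5 was at 5.18, 6.03 and 10.7 CPM and at 46.0, 43.4 and 64.7 CPM, a ratio of means of 7.04. LAMB3 followed with 56.3, 52.5 and 56.4 CPM against 120.9, 117.8 and 139.3 CPM, a ratio of 2.29. In all, 5 of the 9 members were higher in the enterocyte-like cluster in every library without overlap, with LAMA3 (1.88) and ITGA3 (1.73) as the others, and 16% of the genes were. LAMA3 rested on 24 UMIs in the stem-like and 68 in the enterocyte-like cluster. Its highest stem-like value was 2.44 CPM and its lowest enterocyte-like value 2.58 CPM. COL17A1 had 26 UMIs in the stem-like cluster, and the part of free RNA in these low counts was not tested. ITGA6, ITGB4, ITGA2 and ITGB1 overlapped, with ratios of 1.12, 1.22, 1.92 and 1.05.

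The share of cells with a COL17A1 UMI was 0.725% in the stem-like cluster (median depth 3957 UMIs) and 6.22% in the enterocyte-like cluster (3882 UMIs), and the ITGA5 share was 2.93% and 17.9%. The stem-like share of COL17A1 was the lowest of the 7 clusters. The proliferating-like cluster lay between them for both genes, with 4.70 ± 0.95 CPM of COL17A1 and 15.6 ± 1.2 CPM of ITGA5. Against it, 4 members were higher in the enterocyte-like cluster without overlap (LAMB3, COL17A1, ITGA3 and ITGA5), and 19.3% of the genes were.

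Cluster 7, with the gut hormone and mucin genes among its leaders, had lower anchoring genes than cluster 5. Its cells were 74.9% HT29-line, 5.24% Caco-2-line and 19.9% without an assigned line. The part of this mix in the difference was not tested. LAMA3, LAMB3, ITGA6, ITGB4, COL17A1 and ITGA3 were lower without overlap, 6 of the 9 members, and 17.7% of the genes were. In cluster 7 LAMA3 rested on 2 UMIs, COL17A1 on 12 and ITGA3 on 19. COL17A1 was at 7.22, 14.7 and 26.0 CPM there and at 133.8, 145.9 and 133.4 CPM in cluster 5. LAMB3 was at 36.1, 51.6 and 60.7 CPM against 142.4, 180.3 and 154.7 CPM, and ITGB4 was at 57.8, 81.1 and 56.4 CPM against 147.3, 154.0 and 158.7 CPM. ITGB1 overlapped between these clusters, at 516.5, 450.0 and 446.6 CPM against 500.8, 550.0 and 531.4 CPM.

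The enteroendocrine-like cluster 6 had low ITGB4 beside a high ITGB1, at 591.6 and 595.3 CPM in the controls and 421.6 CPM in the LPS library. ITGB4 was at 3.79 to 7.27 CPM in the 3 libraries. COL17A1 had 3 UMIs in all. Its 4.95 ± 4.3 CPM did not differ beyond its spread from 1.71 ± 0.72 in the stem-like and 4.70 ± 0.95 in the proliferating-like cluster. LAMA3 was found in 0 of 193 cells, which leaves room for 1.55%, and since its share was 0.696% in cluster 1 and 1.38% in cluster 2, a difference from these was not detectable at this depth. ITGA6 was at 40.0, 26.5 and 79.9 CPM, so in this cluster ITGA6 was counted 28 times and ITGB4 3 times. Cluster 4 went the other way, with ITGB4 at 46.8, 78.1 and 84.0 CPM, ITGA3 at 36.1, 36.3 and 40.0 CPM and ITGA5 at 22.7, 24.7 and 25.3 CPM, that is, with genes of both lines. It also held 23.8% of cells whose line was not assigned and had the highest depth, and the part of doublets in it was not tested.

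At a finer resolution the largest cluster mostly of HT29-line cells (the larger, 92.9% HT29-line) was compared with the next in size (the smaller, 94.2%). LAMA3 and LAMB3 did not follow each other between them, and clusters of fewer cells were not compared. LAMB3 was at 123.5, 165.6 and 146.8 CPM in the larger and 196.8, 250.1 and 193.9 CPM in the smaller cluster, while LAMA3 was at 36.1, 29.3 and 28.1 CPM and at 17.5, 22.6 and 14.5 CPM. COL17A1 was at 119.9, 135.7 and 131.4 CPM and at 174.4, 200.1 and 154.0 CPM. ITGA3 was at 88.4, 89.2 and 101.0 CPM and at 117.9, 101.7 and 105.1 CPM, and ITGA6 was at 171.8, 132.4 and 139.6 CPM and at 119.8, 121.0 and 121.4 CPM. In the smaller cluster 3 of the 9 members were thus higher with no overlap of the libraries (LAMB3, COL17A1 and ITGA3), as were 8.26% of the genes, and 3 were lower (LAMA3, ITGA6 and ITGA5, the last with 1 UMI against 22), as were 20.1% of the genes. The margin was narrow for ITGA3, whose lowest value in the smaller cluster was 101.7 CPM and highest in the larger 101.0 CPM. ITGA5 was at most 0.974 CPM in the smaller cluster and at least 1.07 CPM in the larger. Cells of the smaller cluster also had less MKI67, a proliferation gene, at 6.31 ± 5.9 CPM against 32.7 ± 7.0.

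Likeness of pattern was measured over 21 points, the 7 clusters in each of the 3 libraries, as Pearson's r of log2(CPM + 1). The points share libraries and line composition, so the values are a description. ITGB4 was most like IGFBP4 (r = 0.981), CLIC3 (0.977) and S100P (0.975), COL17A1 was most like MYH14 (0.954), PLEC (0.921) and NDRG1 (0.917), and LAMA3 was most like BTBD16 (0.949), IFIT1 (0.939) and VSIG10L (0.928). ITGA3 was most like APOL1 (0.939), ANXA1 (0.939) and KRT17 (0.932), and ITGA6 was most like NR1H2 (0.932), CD59 (0.932) and ATP7A (0.909). LAMB3 was most like MALL (0.935), ACSL5 (0.907) and PI3 (0.897), and ITGA5 was most like CREB3L3 (0.971), LIPA (0.928) and PDLIM2 (0.923). ITGB1 was nearest to IMPA1 (0.957), MACF1 (0.952) and ONECUT2 (0.933), and ITGA2 to EPB41L4B (0.911), ARHGEF5 (0.909) and RUSC1 (0.882). Among the members themselves, ITGB4 and ITGA3 had r = 0.863 and LAMA3 and ITGA3 0.824, while ITGA5 had -0.53 with ITGA6 and -0.65 with ITGB1.

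The second comparison asked whether LPS changed these genes, in all kept cells and within each line. None of the 9 members was called in all kept cells, where edgeR called 0.131% of the 16080 genes tested. None of the 8 members tested was called in HT29-line cells (0.192% of 11990 genes) and none of the 9 in Caco-2-line cells (0.129% of 15527 genes), and ITGA5 did not pass the filter in HT29-line cells. At an unadjusted p under 0.05, edgeR marked 2 members in all kept cells, ITGA2 and ITGA5, the same 2 in Caco-2-line cells and 0 in HT29-line cells. DESeq2 called 0 members in each of these comparisons, and marked 0 at an unadjusted p under 0.05.

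ITGA2 had the largest difference. It stood at 13.1 and 17 CPM in the controls and 23.1 CPM in the LPS library over all kept cells, a log2 fold change of 0.54 with a 95% interval of 0.19 to 0.89 (edgeR, adjusted p = 0.655). In Caco-2-line cells it was at 11.6 and 17.9 CPM in the controls and 22.6 CPM with LPS (log2 fold change 0.55; edgeR, adjusted p = 0.526), and in HT29-line cells at 21.6 and 14.1 CPM and 23.7 CPM (0.35; edgeR, adjusted p = 1.00). The LPS library was the highest of the 3 in each case, and the controls differed from each other by 6.31 CPM in Caco-2-line cells. ITGA5 in Caco-2-line cells was at 24.0 and 22.1 CPM in the controls and 31.1 CPM with LPS (log2 fold change 0.35; edgeR, adjusted p = 0.685).

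**Figure D4:**
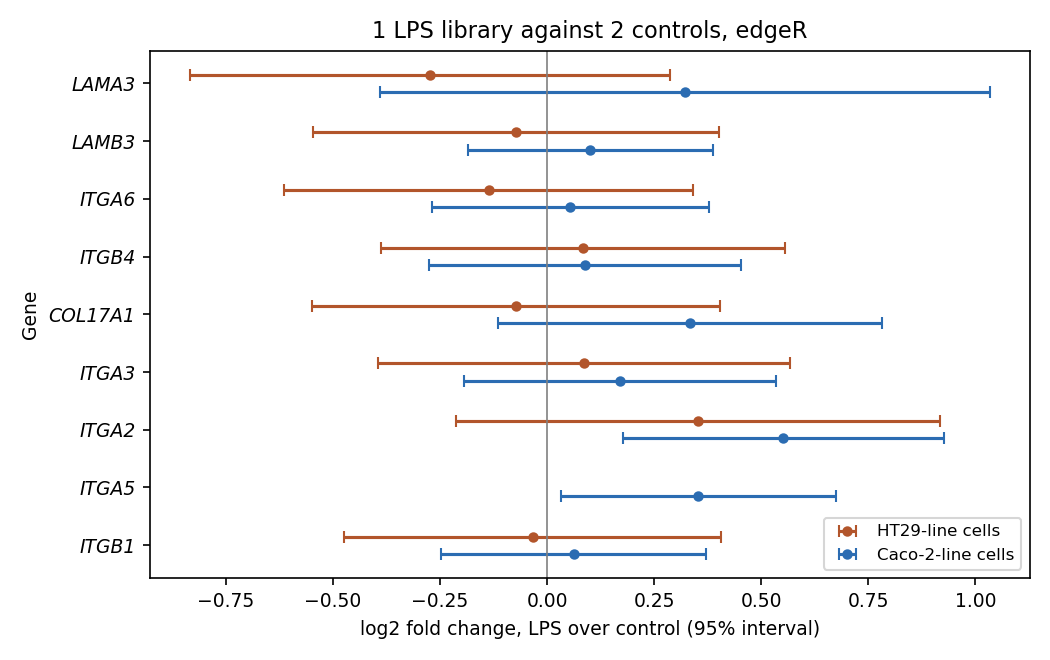
Log2 fold change of the LPS library over the 2 controls for each gene in HT29-line cells (brown) and Caco-2-line cells (blue), with unadjusted 95% intervals of edgeR's fit. In HT29-line cells every interval includes 0, and in Caco-2-line cells those of ITGA2 and ITGA5 lie above it. ITGA5 was not tested in HT29-line cells.

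The intervals show what size of change the fit could leave unseen, with a spread drawn largely from all genes. They do not cover differences between cultures that the lone LPS library may carry. For COL17A1 in HT29-line cells the log2 fold change was -0.07 with an interval of -0.55 to 0.40, for ITGB4 0.08 with -0.39 to 0.55 and for LAMB3 -0.07 with -0.55 to 0.40. For ITGB1 in Caco-2-line cells it was 0.06 with -0.25 to 0.37. In HT29-line cells 3 of the 8 members had a positive value, and in Caco-2-line cells all 9 had one, with a median of 0.17 against 0.01 over all genes. The share of all genes with a positive value was not counted. In Caco-2-line cells the medians of other laminin chains, other matrix and laminin receptors and other integrin subunits were 0.27, 0.27 and 0.24. Those of the other lists were 0.02 to 0.07, so the shift was not particular to the members. A test of the difference in the LPS effect between the lines called 0 of the 9 members, 0 at an unadjusted p under 0.05 and 0 in DESeq2, with 0.093% of 15048 genes called by edgeR. The largest such difference was that of LAMA3, -0.61 with an interval of -1.35 to 0.13 (edgeR, adjusted p = 1.00). Each of the fits against LPS assumed that the lone LPS library varies as the controls do.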

How the data were processed

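The members, gene lists and markers were chosen with earlier results of these data known. The deposited counts are UMIs per gene and barcode that the authors made with Cell Ranger on GRCh38 (version 3.1.0 in the file headers), with no normalization. Cells were kept at 2250 UMIs and 770 genes or more in control 1, 1500 and 700 in the others, and at most 20% mitochondrial UMIs. The LPS library took the minimums of control 2. The Scrublet scores of scanpy 1.11.5 marked 0 doublets by the automatic threshold, and the 6% of cells with the highest scores were removed per library. The line came from the share of a cell's UMIs on HT29 genes, among those on the study's HT29 and Caco-2 lists (386 and 737 genes used, from bulk RNA of each line alone), by a mixture of 2 normal distributions per library at a posterior over 0.99. Members on these lists were removed first. Cells between were left out of both lines.

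Leiden clusters (leidenalg 0.10.2) were made at the resolutions 0.5, 0.3 and 1.0, of which the first is reported unless said. A cluster took a name with at least 3 raised markers, of which at least 2 stood among its 10 leading genes, more than of any other class there, and cluster 7, with 2 each of goblet and enteroendocrine markers, took none. The minimum of 2 was added after cluster 4 had been seen, because 1 marker alone would have named it.

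Counts were summed per line and library and tested with edgeR 4.0.16 in R 4.3.3 (quasi-likelihood, TMM scaling, low-count filter, Benjamini-Hochberg adjusted p under 0.05), with the library as a block between lines. DESeq2 1.42.0 was the other tool. The tests were tried on simulated data. Named besides the members were up to 4 genes of each list past the threshold with the largest change between the lines, and 3 genes of the most similar pattern per member. ERBIN, DST, FERMT1, LAMA5 and LAMB2 were named after their values had been seen, and 1 gene of the lists is not reported here.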

Additional observations from a re-analysis of the deposited data

How the results depend on the processing

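Between the lines, 7 members were higher and 1 lower under each of the 11 alternatives, except that 8 were higher without control 2. Leaving out one library each gave 7 to 8 members higher and 1 lower. The values of the 8 called members kept their direction and their side of the threshold. ITGA2 ranged from -0.18 to 0.42 with one library left out, and turned without control 1 (-0.18; edgeR, adjusted p = 0.348). The fit with no replicate block called 7 members higher and 1 lower. With no filter the median of all genes moved to -0.44. Against LPS, 0 members were called under any alternative with a test. Leaving out a control gave 1 library against 1, a value with no test. Over these values without one control, the direction turned in all kept cells for LAMA3 (-0.051 to 0.15), ITGA6 (-0.026 to 0.033), ITGB4 (-0.058 to 0.32) and COL17A1 (-4.6e-05 to 0.17), in Caco-2-line cells for ITGA6 (-0.053 to 0.13) and ITGB4 (-0.16 to 0.33), and in HT29-line cells for LAMB3 (-0.25 to 0.073). With both lines fitted together LAMA3 turned to -0.025 and ITGA6 to -0.048. The difference in the LPS effect on ITGA5 between the lines ranged from -0.11 to 0.39 over its 5 alternatives. It turned to -0.11 with no cell removed for its doublet score. The cause was not tested. Genes called against LPS in all kept cells fell from 21 to 6 with DESeq2, 5 at the minimums of control 1, 11 with no cell removed and 3 with both lines fitted together, and were 47 with no filter. In HT29-line cells 23 became 5, 13 and 0 (DESeq2, minimums of control 1, no filter), and in Caco-2-line cells 20 became 4, 9, 1, 7 and 54 (DESeq2, minimums of control 1, no cell removed, line per cluster, no filter). The 14 genes whose LPS effect differed between the lines became 1, 22 and 0 (DESeq2, minimums of control 1, no cell removed), under 5 alternatives chosen after the data were seen. The counts of 0 were edgeR's, with 239 and 320 genes at an unadjusted p under 0.05. Among clusters with at least 20 cells in each library, the highest level was in a cluster mostly of HT29-line cells for 6 members at each resolution. The share of all genes for which this held was not counted.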

Other observations

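Cells whose line was not assigned, 92, 123 and 182 in control 1, control 2 and the LPS library, belonged to no comparison. They had COL17A1 at 31.4, 72.6 and 60.3 CPM, ITGB4 at 56.1, 112.7 and 96.0 CPM and ITGA6 at 49.2, 62.3 and 79.3 CPM, all between the values of the lines. ITGA5 was at 42.4, 23.7 and 36.9 CPM, above its Caco-2-line value in each library, and LAMB3 at 139.5, 142.3 and 136.2 CPM. Their median depth was 5402.5, 4291 and 4243.5 UMIs, against 5401.5, 3755 and 3542.5 in HT29-line cells and 5465, 4199 and 3560 in Caco-2-line cells, so in control 1 it did not stand above the lines, and the part of doublets was not tested.

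A cluster of 73 cells led by FABP7, PTN and XAGE2, with 8 cells in the LPS library, was too small to be counted. It held no HT29-line cell, and 94.5% of it was Caco-2-line. ITGB4 was at 151.0, 190.1 and 132.9 CPM there, 89 UMIs in all, against 405, 465 and 362 UMIs at 16.1, 23.5 and 22.1 CPM over all Caco-2-line cells, and its mean of 158.0 ± 29.2 CPM was near the 153.3 ± 5.7 CPM of cluster 5 (SD, n = 3 libraries). COL17A1 had 1 UMI and LAMA3 had 2 in the same cells, and ITGA6 had 28.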
